A study of Oryza sativa with 60 samples.

Results

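Bisulfite-induced deletion sequencing (BID-seq) of rice polyA+ RNA listed 9126 pseudouridine (Ψ) sites, each with 7 letters of sequence around it and the site at letter 4. Described here are the sites that lie between a T and a C, written TΨC. A site was a member when it lay within the span of exactly 1 gene on its chromosome and strand, when that gene carried an identifier beginning with Os, and when letter 3 was T and letter 5 was C. This gave 736 members in 686 genes, out of 8124 sites that lie within exactly 1 such gene, or 9.06% of them. The other 7388 of these sites, in all other contexts, serve as the comparison. The rule used the sequence and the gene span only, and no fraction. A further 219 TΨC sites were not members: 191 lay within no gene, 26 within a gene with another kind of identifier and 2 within 2 or more genes.

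Ψ is an isomer of uridine that Ψ synthases make in RNA after transcription. TΨC is the sequence that gives the T loop of tRNA its name. There, bacterial TruB, yeast Pus4 and mammalian TRUB1 modify a uridine in the sequence GUUCNA, where N is any base, and in yeast and mammals the same enzymes also modify mRNA at this sequence. In the 7 letters of the site table it reads NGTTCNA and is called the T-loop sequence here. Other Ψ synthases modify mRNA in other contexts. Which rice enzyme modified a member was not measured here.

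All plants were of the cultivar Nipponbare, and the labels name no mutation or transgene. The 12 groups were plumule (spelled plumulel in the labels) and radicle, which are the shoot and the root that leave a germinating seed, each grown in dark or in light, seedlings of 8 days and 2 weeks, panicle, straw and flag leaf at heading, and 3 groups taken 10 days after anthesis (10 DAA), namely flag leaf, endosperm and embryo. Each group had 2 untreated input and 3 bisulfite-treated libraries, 60 in all. In BID-seq, bisulfite forms an adduct with Ψ that reverse transcriptase skips, so that the share of reads with a gap reports how often a uridine is Ψ. The Ψ fraction, the estimated percentage of transcripts that carry Ψ at the site, was computed by the authors once for each site in each tissue from reads of all replicates together, so it has no replicate error and its read depth is unknown. For 11 tissues the table also says whether a site passed the authors' filter, which used p-values, and for plumule in the dark it does not. Gene levels are TPM values, which are scaled to gene length and to the library, in 2 libraries per tissue, whose column names do not say whether they were input or treated.

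Several limits of the libraries touch the values below. The depth of the 24 expression libraries, as reads recovered from TPM and gene length, ran from 2109737 in radicle in the light replicate 2 to 9006629 in seedling at 2 weeks replicate 2. Replicate 1 of radicle in the light correlated with the endosperm libraries at a mean Pearson's r of 0.896 across genes, while replicate 2 did so at 0.739. With the libraries of radicle in the dark these values were 0.911 for replicate 1 and 0.966 for replicate 2. The 2 replicates of radicle in the light correlated at 0.914 with each other, and those of the other 11 groups at 0.986 to 0.994. The fractions of radicle in the light are pooled and cannot be given without any replicate. In 3 groups the 2 libraries differed by no more than sampling noise, namely plumule in the dark (chi-square p = 0.306), plumule in the light (p = 0.62) and endosperm (p = 0.0697). The tests of gene levels kept both libraries of these groups, and the results in plumule and in endosperm are also given with each such group counted as 1 sample, fits added after seeing the data. The chi-square used reads recovered from TPM, and is approximate. Per gene it was 8.01 in radicle in the light and 0.995 to 1.14 in the other 11 groups. Embryo and endosperm were both at 1.02, although embryo had a chi-square p of 0.0421. The groups outside those 3, radicle in the light excepted, were thus also close to sampling noise. Embryo, seedlings and flag leaf were not also counted as 1 sample. The methods speak of biological replicates but do not say whether these came from separate plants, so p-values measure the spread between libraries.

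Among the 736 members were 144 different 7-letter sequences, and 54 of them occurred once. The commonest are shown because they separate into those with low and those with high fractions, with the TΨC letters in capitals and the site as the second capital, read 5′ to 3′ as DNA from the deposited site table.
TΨC word with most members: ggTTCtg
TΨC word next in number: gtTTCtg
T-loop word with A at letter 6: ggTTCaa
T-loop word with G at letter 6: ggTTCga
T-loop word with C at letter 6: ggTTCca
T-loop word with T at letter 6: ggTTCta
TΨC word with C at letters 2 and 6: gcTTCcg
Here the mean fraction of a site is its mean over the tissues with a value. The word ggTTCtg, with 53 members in 52 genes, had a median mean fraction of 9.88%, and none of its members exceeded 25.0%. The word ggTTCga, with 25 members, had a median of 43.2%, and 11 of these sites had a mean of 50% or more. The medians were 31.7% for ggTTCaa (29 members), 28.5% for ggTTCta (22 members) and 22.8% for ggTTCca (23 members). Words outside the T-loop sequence also reached this range, with 30.2% for gcTTCcg (21 members), while gtTTCtg (37 members) had 16.2%. The word gcTTCcc, not shown above, also had 21 members, and its median was 27.3%. Among the words shown, those that share their first 5 letters, ggTTC, thus had medians from 9.88% to 43.2%. Rarer words with these letters also lay lower, such as ggTTCgt (3 members) at 7.23%.

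Members differed from the other sites in each flanking position. Letter 1 was G in 54.3% of members and 28.0% of other sites. Letter 2 was C in 35.1% of members and 14.2% of other sites, and it was G in 43.3% of members and 65.1% of other sites. Letter 6 was C in 43.9% of members and 19.2% of other sites. The median mean fraction of members was highest with A at letter 7, at 27.2%, and lowest with T at letter 6, at 12.6%. A gap of 1 base within a run of T can be drawn at any T of the run, and every member is by its rule the last T of such a run. Up to the site the run was 2 letters long in 597 members, 3 letters in 118 and at least 4 letters in 21. The medians for these lengths were 18.7%, 22.0% and 16.2%. Letters before letter 1 are not listed, so the full length of the longest runs is unknown. Runs of 2 or more T held 2440 of the 9126 sites, and 78.7% of those were the last T of their run. The part of gap placement in the results was not tested.

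TΨC had the highest median of mean fractions among the 16 contexts of 1 letter before and 1 after the site. The median was 19.0% for members, with quartiles of 11.9% and 31.3%. It was 16.6% for CΨC (1204 sites), 13.7% for TΨG (682 sites), 10.4% for GΨC (841 sites), 8.61% for AΨC (1079 sites) and 0.176% for TΨT (137 sites). The members spread from 2.71% to 97.4%. A mean fraction of 50% or more was found in 59 members, or 8.02% (Wilson 95% interval 6.27 to 10.2%), and in 2.10% of other sites (1.80 to 2.45%). Of these 59 members, 24 passed in 5 or more tissues and 21 in 1 or none. The median level of their genes was 8.70 to 22.6 TPM by tissue, against 35.0 to 53.6 TPM for the genes of the other members. For GΨA this share was 9.92%, above that of TΨC, although the GΨA median was 5.38%. Intervals of shares cover the counting of sites only.

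**Figure D1:**
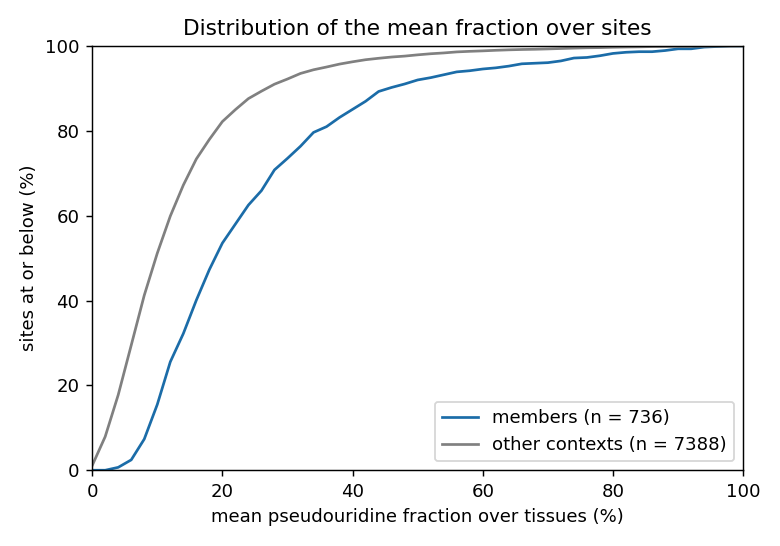
Cumulative percentage of sites (vertical axis) at or below a mean Ψ fraction over tissues in percent (horizontal axis), for the 736 members in blue and the 7388 other sites in grey. The blue line lies to the right of the grey line, with medians of 19.0% and 9.74%.

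Each tissue was then compared by the median fraction of members and of other sites. In plumule the median was 18.2% for members and 7.59% for other sites in the dark, and 19.3% and 7.64% in the light. In radicle it was 20.2% for members and 10.2% for other sites in the dark, and 16.0% and 8.37% in the light. Seedlings had 20.2% for members and 8.62% for other sites at 8 days, and 17.6% and 7.25% at 2 weeks. At heading the members had 15.7% in straw, 17.6% in flag leaf and 19.2% in panicle, against 8.95%, 8.26% and 8.71% for other sites. At 10 DAA the members had 16.4% in flag leaf, 19.8% in embryo and 20.5% in endosperm, against 8.11%, 7.45% and 8.21% for other sites. Members were thus higher in 12 of 12 tissues, by 10.1 points on average (range 6.72 to 12.4). An exact two-sided sign-flip permutation test over the 12 tissues gave p = 0.000488, the smallest that 12 tissues allow, and an adjusted p of 0.000977 over 4 such tests. The tissues share their sites and are not independent, so the test says only that the direction was shared. The difference was 9.12 points without the members of the T-loop sequence and 9.78 points among genes at 10 TPM or more.

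**Figure D2:**
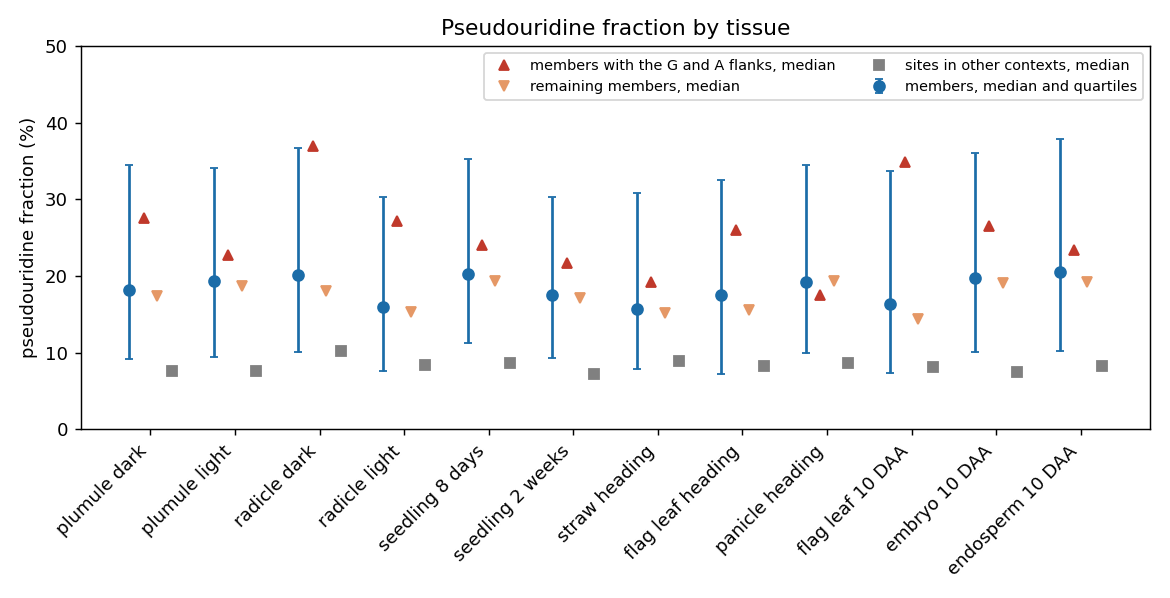
Median Ψ fraction in percent (vertical axis) in each of the 12 tissues (horizontal axis). Blue circles are all members with lines to their quartiles, red triangles members with G at letter 2 and A at letter 7, orange triangles the remaining members and grey squares sites in other contexts. The blue circles lie between 15.7% and 20.5% and the grey squares between 7.25% and 10.2%.

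The tissues themselves differed little in these medians. Over the 648 members with a value in all 12 tissues, the lowest median was 15.9% in straw and the highest 20.2% in seedling at 8 days, with radicle in the dark also at 20.2%. Radicle in the light was close to straw, at 16.0%. With 1 pooled value per site and tissue no test of these differences was made. The share of members that passed the filter varied more, with 30.0% in radicle in the dark (221 members, Wilson 95% interval 26.8 to 33.4%) and 10.5% in endosperm (77 members, 8.45 to 12.9%). For other sites the share varied likewise, from 27.5% in radicle in the dark to 11.2% in seedling at 8 days. In embryo 28.0% of members passed, against 19.5% of other sites, and in plumule in the light 22.6% of members against 14.5% of other sites. In endosperm the order was the other way, with 10.5% of members and 11.8% of other sites. Over 11 tissues the share passed was 2.02 points higher for members on average (range -1.35 to 8.48, higher in 6 of 11). The exact sign-flip permutation test gave p = 0.084, which did not pass the threshold of 0.05.

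The T-loop sequence, NGTTCNA, held 123 of the 736 members, in 121 genes. Their median mean fraction was 24.8%, with quartiles of 15.0% and 50.7%, against 17.9% for the remaining 613 members. A mean fraction of 50% or more was found in 32 of the 123 (26.0%, Wilson 95% interval 19.1 to 34.4%) and in 27 of the 613 (4.40%, 3.04 to 6.33%). Passage in 5 or more tissues was found in 26.0% of the 123 and in 8.65% of the 613. The first of these counts differed with the letter before the sequence. With G at letter 1, 32 of 99 sites had a mean of 50% or more and the median was 32.0%. With another letter there, 0 of 24 sites did so, for which the Wilson 95% interval reaches 13.8%, and the median was 14.3%. Passage in 5 or more tissues was alike, with 26.3% for G and 25.0% for another letter. The letter at position 6 gave medians of 34.3% for G, 31.7% for A, 30.7% for T and 18.9% for C.

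By tissue, the T-loop members had their highest medians in radicle in the dark, at 36.9% against 18.1% for the remaining members, and in flag leaf at 10 DAA, at 34.9% against 14.4%. Panicle was the exception by the median, with 17.5% for T-loop members and 19.3% for the remaining members. Its means were 28.8% for T-loop members and 23.3% for the remaining members. The difference of medians was 8.26 points on average over 12 tissues (range -1.78 to 20.5), positive in 11 of 12. The exact two-sided sign-flip permutation test gave p = 0.000977 and an adjusted p of 0.0013 over the 4 tests. The tissues share their sites here too, so the test concerns only the shared direction. Where genes had 10 TPM or more in the tissue, the difference was 4.72 points (exact p = 0.00146). Outside the members, 135 of the 219 TΨC sites left out by the rule had the same sequence.

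The sites with the highest mean fractions were taken from 83 members that passed in 5 or more tissues and had a value in all 12. Of these 83, 31 had the T-loop sequence, and of the 10 highest 8 did. The sites are shown with the G, TTC and A of the T-loop sequence in capitals, or TTC alone in sites of another sequence, so that the shared letters can be seen beside the values that follow.
Os07g0421200: gGTTCaA
Os09g0568000: gGTTCcA
Os05g0161400: gGTTCtA
Os02g0535000: gGTTCaA
Os03g0108400: gcTTCcg
Os02g0474000: gGTTCaA
Os06g0143000: gGTTCaA
Os01g0886300: gcTTCaa
Os05g0580900: gGTTCgA
Os06g0190500: gGTTCaA
All positions are in IRGSP-1.0, and the files give gene spans without exons, so whether a site is exonic was not analysed here. Gene names were not used here, since the tables give identifiers alone. The last of the 10 had a mean of 71.3%, and the next site had 64.7%.

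The highest was at chromosome 7 position 13527382 on the minus strand, within Os07g0421200 (span 13525140 to 13530668), 59.4% of the way along the span. Its fraction was 85.6% in radicle in the dark at the lowest, 94.2% at the median and 98.9% in seedling at 2 weeks at the highest, and it passed in 9 of 11 tissues. The gene had 6.16 TPM in radicle in the dark and 30.0 TPM in flag leaf at heading, its lowest and highest levels. The lowest fraction and the lowest level were in the same tissue, in which the site did not pass. The site in Os09g0568000 (chromosome 9 position 22685253, plus strand, span 22682528 to 22687730) had 86.3% in panicle, a median of 92.7% and 99.3% in radicle in the dark. It passed in 10 tissues, and its gene had between 13.1 and 48.9 TPM. The site in Os05g0161400 (chromosome 5 position 3616141, plus strand, span 3614640 to 3619081) had 73.4% in plumule in the dark, a median of 87.4% and 97.2% in radicle in the dark. It did not pass in radicle in the dark, where its gene had 8.88 TPM, and plumule in the dark has no flag.

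The fractions of 3 other sites ranged more widely. The site in Os02g0535000 (chromosome 2 position 19714889, minus strand, span 19714852 to 19717671), which lies near the end of its gene at 98.7% of the span, had 55.1% in panicle, a median of 84.6% and 100% in radicle in the dark. It passed neither in panicle nor in radicle in the dark, and in the latter the gene had its lowest level of 3.71 TPM. The site in Os06g0143000 (chromosome 6 position 2258625, plus strand, span 2256869 to 2260898) had 43.8% in endosperm, a median of 81.0% and 100% in radicle in the dark, where its gene was also lowest, at 10.1 TPM. Neither of its extreme values belonged to a tissue in which the site passed. The site in Os06g0190500 (chromosome 6 position 4572311, minus strand, span 4571098 to 4574904) had 54.4% in endosperm, a median of 72.9% and 85.6% in radicle in the light. It passed in neither of those tissues, where the gene had 3.22 and 3.19 TPM. Different sites also shared identical values. A fraction of 81.9% was listed for Os02g0535000 in radicle in the light and in embryo. The same value was listed for Os06g0143000 in plumule in the dark and in straw. How many reads lie behind such values is unknown, and the cause of the repeats was not tested.

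Os03g0108400 and Os01g0886300 held the 2 sites among these 10 that did not have the T-loop sequence. Both lie near the start of their genes, at 1.73% and 7.46% of the span. The site in Os03g0108400 (chromosome 3 position 497784, plus strand, span 497751 to 499662) had 65.8% in seedling at 8 days, a median of 82.6% and 89.1% in embryo. It did not pass in seedling at 8 days. The site in Os01g0886300 (chromosome 1 position 38509447, plus strand, span 38509123 to 38513469) had 66.5% in seedling at 2 weeks, a median of 76.8% and 87.0% in flag leaf at 10 DAA. It passed in all 11 tissues with a flag. Os02g0474000 (chromosome 2 position 16151558, plus strand, span 16150047 to 16152871) had 68.5% in panicle, a median of 79.6% and 93.7% in radicle in the dark. Its site did not pass in radicle in the dark, where the gene was lowest, at 6.15 TPM. The site in Os05g0580900 (chromosome 5 position 28912181, minus strand, span 28904690 to 28912194) lay at 0.173% of its span and had 56.6% in endosperm, a median of 74.3% and 83.8% in plumule in the dark. It passed in endosperm, and plumule in the dark has no flag.

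**Figure D3:**
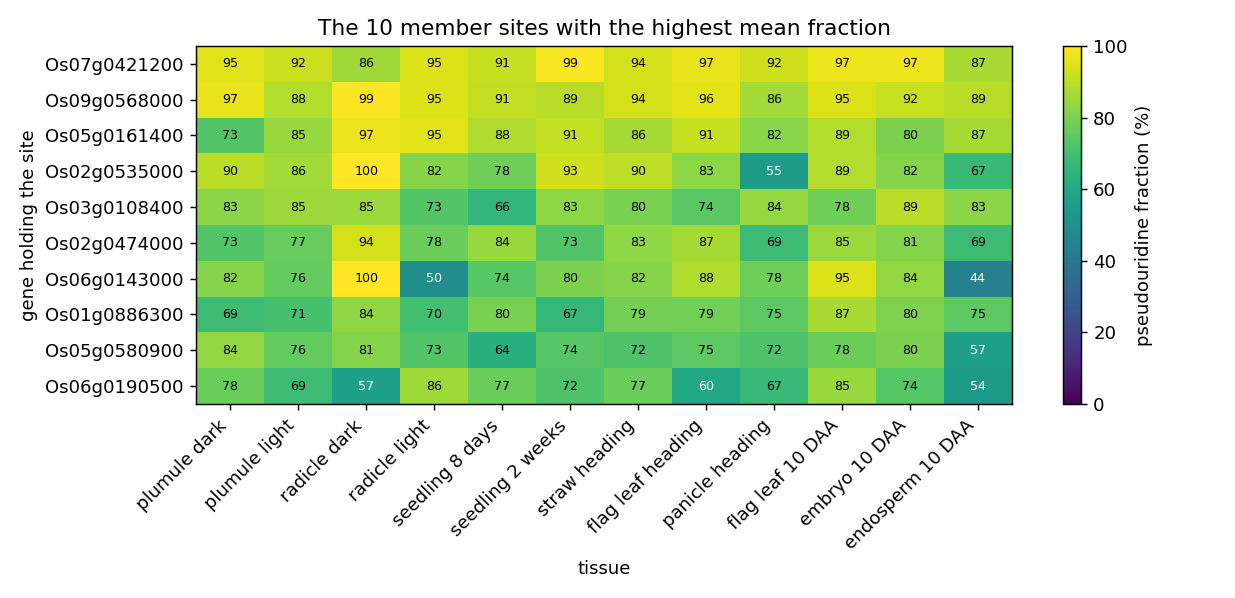
Ψ fraction in percent (colour and printed whole number) of the 10 members with the highest mean fraction among those passed in 5 or more tissues, named by gene (vertical axis), in 12 tissues (horizontal axis). Os07g0421200 stays between 85.6% and 98.9%, whereas Os06g0143000 has 100% in radicle in the dark and 43.8% in endosperm.

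Of the 32 T-loop members passed in 5 or more tissues, the 12 highest included 4 not named above. Their sequences are shown to compare with the first set.
Os05g0513100: gGTTCaA
Os01g0967100: gGTTCaA
Os01g0661500: gGTTCcA
Os09g0557400: gGTTCaA
Os05g0513100 (chromosome 5 position 25436448, plus strand, span 25436359 to 25438597) had 59.4% in seedling at 2 weeks, a median of 77.9% and 100% in endosperm, where its gene had 0.472 TPM and the site did not pass. It had no value in radicle in the light. Os01g0967100 (chromosome 1 position 42646221, plus strand, span 42646061 to 42653875) had 47.5% in radicle in the light, a median of 58.5% and 73.5% in embryo. Its site did not pass in radicle in the light. The site in Os01g0661500 (chromosome 1 position 27011698, plus strand, span 27008803 to 27012114) had 48.4% in radicle in the light, a median of 56.7% and 75.4% in radicle in the dark. It passed in the dark and not in the light. Its gene had 8.38 TPM in plumule in the light and 160 TPM in embryo, where the fraction was 73.1%. Os09g0557400 (chromosome 9 position 22152919, minus strand, span 22152690 to 22155609) had 22.6% in endosperm, a median of 58.5% and 79.2% in radicle in the light. Its site passed in 10 tissues, endosperm not among them.

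Of the 736 members, 393 (53.4%) passed in 1 tissue, against 59.2% of other sites. Among members, 145 passed in 2 tissues, 85 in 5 or more and 17 in none of the 11 tissues with a flag. The share passed in 5 or more tissues was 11.5% for members (Wilson 95% interval 9.44 to 14.1%) and 9.11% for other sites (8.47 to 9.79%). Passage in all 11 was found in 3 members, which were looked up after their values were seen. They were the site in Os01g0886300 above, the T-loop site in Os03g0130500 (chromosome 3 position 1720762, minus strand) with a mean of 49.3% and the T-loop site in Os08g0110800 (chromosome 8 position 577793, plus strand) with a mean of 38.8%. Over the 83 members passed in 5 or more tissues with a value in all 12, the median range between tissues was 24.9 points, against 14.6 points over 664 such sites in other contexts. Members also had higher fractions, and ranges at equal fraction were not compared.

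Members that passed lay in genes with higher levels. In radicle in the dark the 221 members that passed had a median gene level of 160 TPM, and those that did not pass had 20.7 TPM. There 98 members had a fraction of exactly 0%, and their genes had a median of 1.97 TPM and at most 20.8 TPM. In each tissue between 8.12% and 15.4% of members with a value were at 0%, and none of these passed in the 11 tissues with a flag. Their genes had medians of 1.30 to 5.92 TPM by tissue, but the highest reached 1322 TPM in radicle in the light, 1129 TPM in endosperm and 687 TPM in seedling at 8 days. Radicle in the dark had the lowest such maximum, and in radicle in the light 59.1% of the members at 0% were in genes under 10 TPM. A value of exactly 100% in some tissue was found in 25 members. Such values passed in plumule in the light only, for 2 of 7 members. Among members that passed, the fraction and the gene level had a Spearman correlation across sites of -0.72 in seedling at 8 days to -0.57 in straw. Over all members with a value it lay between -0.10 and 0.09. The filter used p-values, and how far it selects high fractions in weakly expressed genes was not tested. The sites of a tissue share its libraries and are not independent. Sites in other contexts that passed had values of -0.61 to -0.54.

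**Figure D4:**
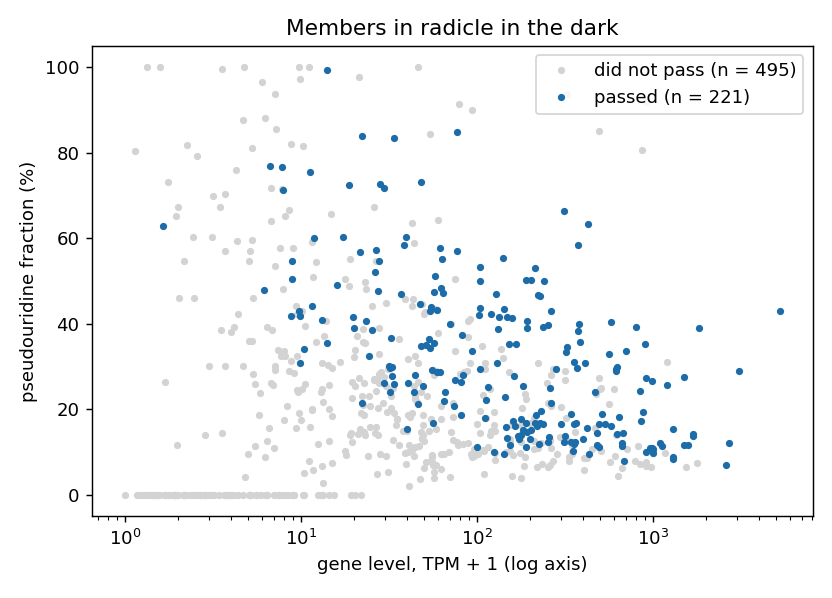
Ψ fraction in percent (vertical axis) against gene level as TPM + 1 on a log axis (horizontal axis) for 716 members in radicle in the dark. The 221 blue points passed the filter and the 495 grey points did not. Points at 0% lie at or under 20.8 TPM, and passed points have a median of 160 TPM. The median is 20.7 TPM over all members that did not pass, including those without a value, which are not drawn.

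Genes with members were compared with the 4347 genes that held other sites only. The median of log2(TPM + 1) was 0.32 higher in genes with members on average over 12 tissues (range 0.25 to 0.49, higher in 12 of 12, exact sign-flip permutation p = 0.000488, adjusted p = 0.000977). The median level in embryo, for example, was 31.4 TPM in genes with members and 23.7 TPM in the other genes. The same genes enter every tissue, so the test says only that the direction was shared. The direction turned when the number of sites per gene was held equal, in a set chosen after seeing the data. Among genes with 1 site in all, 297 held a member and 3122 another site. The difference was -0.19 there (range -0.37 to -0.03, lower in 12 of 12, exact sign-flip permutation p = 0.000488). Of the 686 genes, 375 also held sites in other contexts.

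Each span was divided into 5 equal parts along the transcribed strand, and both sets had similar shares in them. The last part held 28.8% of members (Wilson 95% interval 25.6 to 32.2%) and 28.7% of other sites, and the first part held 20.1% of members (17.4 to 23.2%) and 20.6% of other sites. The middle part held 15.9% of members and 16.0% of other sites. T-loop members had 28.5% of their sites in the first part (21.2 to 37.0%), against 18.4% for the remaining members (15.6 to 21.7%). These intervals overlap only from 21.2 to 21.7%, which is no test of the difference, and none was made. The genes with members had a median span of 3134 bases, introns included, and the genes with other sites only one of 3075 bases.

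**Figure D5:**
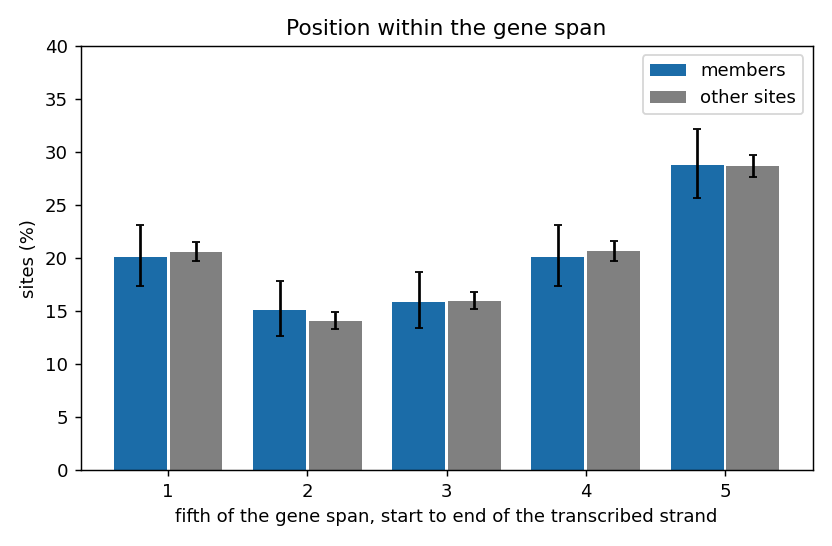
Percentage of sites (vertical axis, bars from 0) in each of 5 equal parts of the gene span from the start to the end of the transcribed strand (horizontal axis), for members in blue and other sites in grey, with Wilson 95% intervals. The 2 sets have nearly the same shares, with 28.8% and 28.7% in the last part.

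A single member was found in 642 genes, 2 members in 39, 3 in 4 and 4 in 1. In Os06g0648200 (chromosome 6, 26485898 to 26494001, minus strand), the gene with 4, each site passed in embryo only. The gene had 54.2 and 53.8 TPM in the 2 embryo libraries, and 11.1 and 12.05 TPM in panicle, the next highest group. In embryo the 4 fractions were 19.4%, 56.1%, 43.6% and 88.7%, in order along the gene. The third site had 84.0% in radicle in the light, where it did not pass, and in plumule in the dark, which has no flag. In Os03g0197300 (chromosome 3, 5116435 to 5119048, plus strand) 3 members passed in embryo, and the second of them also in endosperm. The gene had 5275 and 5403 TPM in embryo against 817 and 837 TPM in endosperm, and the fractions in embryo were 12.1%, 24.6% and 7.38%. In radicle in the light this gene had 362 TPM in replicate 1 and 0 TPM in replicate 2, and these are the libraries that correlated least with each other. In both genes all members passed in the tissue where the gene was most abundant.

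The members of the other 3 genes passed in differing sets of tissues. In Os07g0669100 (chromosome 7, 28272363 to 28276606, minus strand) the 3 fractions had medians of 27.8%, 9.76% and 27.0% over 12 tissues, in order along the gene, and highs in radicle in the dark of 40.6%, 14.8% and 39.1%. The gene had between 96.1 and 309 TPM. In Os12g0167900 (chromosome 12, 3429223 to 3431766, plus strand) the medians were 27.4%, 29.0% and 21.1%. The first of these sites was lowest in radicle in the dark, at 6.52%, where the third was highest, at 39.8%. In Os01g0851700 (chromosome 1, 36670321 to 36676478, minus strand) the medians were 24.4%, 27.8% and 19.1%. In radicle in the light the first 2 of its sites were at their highest, at 35.4% and 64.7%, and the third was at 0%. The sites of Os07g0669100 thus shared their highest tissue, and those of the other 2 genes did not, by single pooled values of which some did not pass.

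To ask how members changed with light, age and organ, fractions were compared in 5 pairs of tissues. With no replicate of a fraction, a difference of 20 points or more was counted, beside the same share of all sites in the table. Between plumule in the light and in the dark, 45 of 712 members (6.32%) were higher and 47 (6.60%) lower, against 5.01% and 5.68% of all sites. Between radicle in the light and in the dark, 41 of 705 members (5.82%) were higher and 83 (11.8%) lower, against 5.09% and 7.47% of all sites. In seedlings of 2 weeks against 8 days, 36 of 717 members (5.02%) were higher and 59 (8.23%) lower, against 5.04% and 6.31% of all sites. In flag leaf at 10 DAA against heading, 46 of 684 members (6.73%) were higher and 36 (5.26%) lower, against 5.69% and 5.08% of all sites. In embryo against endosperm, 67 of 715 members (9.37%) were higher and 81 (11.3%) lower, against 6.21% and 7.39% of all sites. Members also had higher fractions than all sites. Among sites with a mean of 20% or more over the pair, a limit chosen after seeing the data, members differed by 20 points in 21.4% against 29.3% of all sites in plumule, and in 27.9% against 33.5% in embryo and endosperm. The members' share was also below that of all sites in radicle (27.2% against 30.6%), seedlings (21.0% against 30.9%) and flag leaf (18.1% against 27.5%). Among sites passed in at least 1 tissue of the pair, it was above that of all sites in radicle (11.7% against 9.43%) and in embryo and endosperm (16.3% against 14.1%), and below it in plumule (5.45% against 8.53%), seedlings (9.57% against 13.3%) and flag leaf (8.38% against 10.7%). In genes at 10 TPM or more in all 4 libraries it was above that of all sites in each pair, with 6.39% against 5.07% in plumule, 11.2% against 6.48% in radicle, 8.44% against 6.04% in seedlings, 5.89% against 5.30% in flag leaf and 10.1% against 6.20% in embryo and endosperm. The direction of the gap thus depended on which sites were counted.

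The genes that hold members were tested in the same pairs with limma on log2(TPM + 1), over 29987 genes, 684 of which held a member. In plumule, 211 of them (30.8%) rose in the light and 60 (8.77%) fell, against 20.1% and 7.36% of all genes. After quantile normalization 179 of 266 called were higher. With each plumule group counted as 1 sample, a fit added after seeing the data, 125 were called and 95 of them were higher, against 9.80% of all genes called in either direction. Without replicate 1 of radicle in the light 399 were called, in a fit that called 36.6% of all genes. In radicle, 150 (21.9%) rose in the light and 107 (15.6%) fell, against 13.9% and 11.3% of all genes, a total of 257. With only the 2 radicle groups in the fit, limma called 0 of these genes and 7 genes in all, while 88 genes with members had an unadjusted p under 0.05. Without replicate 1 of radicle in the light 226 rose and 108 fell, and without its replicate 2 193 rose and 221 fell, so the larger direction turned with 1 library. The totals were 156 without replicate 1 in the dark and 166 without replicate 2 in the dark. Between seedlings of 2 weeks and 8 days, 225 (32.9%) rose and 248 (36.3%) fell at 2 weeks, against 27.5% and 23.9% of all genes. In flag leaf, 130 (19.0%) rose and 177 (25.9%) fell at 10 DAA relative to heading, against 13.3% and 17.3% of all genes. Between embryo and endosperm, 275 (40.2%) were higher and 215 (31.4%) lower in embryo, against 27.6% and 26.4% of all genes, and with endosperm counted as 1 sample 249 were higher and 196 lower. Genes that hold any site are expressed by selection, and genes with other sites only gave 30.1% and 12.3% in plumule, 20.8% and 15.4% in radicle, 35.0% and 32.4% in seedlings, 19.9% and 24.1% in flag leaf, and 33.1% and 35.0% in embryo relative to endosperm. The largest gap to these genes was in embryo, with 40.2% against 33.1% higher, and that gap was not tested.

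The members with the largest differences in fraction are given next as descriptions. They were taken from members passed in at least 1 tissue of the pair, in genes at 10 TPM or more in all 4 libraries. The sites in plumule passed in the light, and the dark has no flag. In the other pairs each site but that in Os09g0484900 passed only in the tissue with its higher fraction. The lower value thus did not pass, and the part of this choice in the differences was not tested. In plumule, the site in Os07g0567300 (chromosome 7 position 22797189) had 57.9% in the light and 0% in the dark, and its gene had 32.6 and 34.2 TPM in the light beside 23.4 and 28.3 TPM in the dark (limma log2 change 0.36, SE 0.12, adjusted p = 0.0296). The site in Os09g0565450 (chromosome 9 position 22523029) had 48.4% in the light and 15.2% in the dark, in a gene that rose in the light (limma log2 change 0.79, SE 0.24, adjusted p = 0.0233). Neither gene passed with each plumule group as 1 sample (limma adjusted p = 0.208 and 0.225). The T-loop site in Os12g0481100 (chromosome 12 position 17694802) had 39.7% in the light and 69.4% in the dark, and its gene had 35.0 and 33.5 TPM in the light beside 22.5 and 21.9 TPM in the dark (limma log2 change 0.60, SE 0.11, adjusted p = 0.000711). The T-loop site in Os01g0798100 (chromosome 1 position 33791403) had 27.6% in the light and 43.9% in the dark, in a gene that rose in the light (limma log2 change 0.70, SE 0.08, adjusted p = 2.05e-05). Both passed with each plumule group as 1 sample (limma adjusted p = 0.0374 and 0.00435).

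In radicle, the site in Os01g0851700 at position 36673186, one of the genes with 3 members, had 64.7% in the light and 18.5% in the dark, and its gene had 23.5 and 23.2 TPM in the light beside 14.2 and 13.9 TPM in the dark (limma log2 change 0.69, SE 0.08, adjusted p = 1.48e-05). The site in Os08g0510400 (chromosome 8 position 25319178) had 47.9% in the light and 12.9% in the dark, and its gene did not pass the test (limma adjusted p = 0.266). The site in Os05g0437900 (chromosome 5 position 21462138) had 27.3% in the light and 72.8% in the dark, in a gene that fell in the light (limma log2 change -0.35, SE 0.10, adjusted p = 0.0151), for which the adjusted p was 0.0822 without replicate 1 of radicle in the light. The site in Os10g0392400 (chromosome 10 position 13070408) had 0% in the light and 43.6% in the dark. Its gene fell, with 26.1 and 18.0 TPM in the light beside 104 and 102 TPM in the dark (limma log2 change -2.20, SE 0.17, adjusted p = 4.12e-07). None of the genes in radicle passed with only the 2 radicle groups in the fit.

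In seedlings, the site in Os01g0976700 (chromosome 1 position 43164295) had 35.3% at 2 weeks and 0% at 8 days, in a gene that rose at 2 weeks (limma log2 change 0.71, SE 0.11, adjusted p = 5.16e-05). The site in Os01g0831200 (chromosome 1 position 35582485) had 54.3% at 2 weeks and 29.6% at 8 days, and its gene fell at 2 weeks (limma log2 change -0.48, SE 0.09, adjusted p = 0.000226). The site in Os09g0484900 (chromosome 9 position 18717191) had 47.8% at 2 weeks and 86.2% at 8 days, while its gene had 262 and 252 TPM at 2 weeks against 16.0 and 17.1 TPM at 8 days (log2 change 3.88 ± 0.19, limma adjusted p = 2.47e-10). It passed at 2 weeks and not at 8 days, so the higher fraction is the one that did not pass. The site in Os02g0733300 (chromosome 2 position 30576649) had 0% at 2 weeks and 34.4% at 8 days, in a gene that fell at 2 weeks (limma log2 change -1.15, SE 0.28, adjusted p = 0.00286).

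In flag leaf, the T-loop site in Os12g0103000 (chromosome 12 position 138299) had 51.7% at 10 DAA and 16.6% at heading, and its gene did not pass the test (log2 change -0.03 ± 0.16, SE, limma adjusted p = 0.964). The T-loop site in Os04g0437600 (chromosome 4 position 21755108) had 81.9% at 10 DAA and 55.1% at heading, and its gene had 85.7 and 86.3 TPM at 10 DAA against 126 and 128 TPM at heading (log2 change -0.56 ± 0.10, limma adjusted p = 0.000591). Identical fractions were listed for Os02g0535000, at 81.9% in embryo and 55.1% in panicle, and the reads behind them are unknown. The sites in Os03g0749900 (chromosome 3 position 30900519) and Os10g0555100 (chromosome 10 position 21802209) were lower at 10 DAA. The first had 37.5% at 10 DAA and 69.4% at heading, the second 17.7% at 10 DAA and 48.5% at heading, and neither gene passed the test (limma adjusted p = 0.83 and 0.678).

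Between the seed organs, the site in Os05g0150500 (chromosome 5 position 2894955) had 37.9% in embryo and 0% in endosperm, and its gene had 111 and 101 TPM in embryo against 13.8 and 15.9 TPM in endosperm (log2 change 2.76 ± 0.15, SE, limma adjusted p = 6.24e-10). The site in Os03g0689300 (chromosome 3 position 27512207) had 60.0% in embryo and 26.8% in endosperm, and its gene had 88.4 and 91.4 TPM in embryo against 243 and 234 TPM in endosperm. The T-loop site in Os04g0164900 (chromosome 4 position 4410568), with the letters aGTTCaA, had 0% in embryo and 56.4% in endosperm, and its gene had 91.5 and 89.7 TPM in embryo against 1323 and 1303 TPM in endosperm. The limma adjusted p was 0.0986 for Os03g0689300 and 0.0244 for Os04g0164900, and without replicate 1 of radicle in the light it was 8.61e-06 and 2.41e-11. With endosperm counted as 1 sample neither passed (limma adjusted p = 0.216 and 0.0826). The site in Os08g0487500 (chromosome 8 position 24113968) had 19.7% in embryo and 61.8% in endosperm, in a gene that was lower in embryo (log2 change -1.16 ± 0.09, limma adjusted p = 1.65e-08). In 4 of these 5 pairs a site at 0% in one tissue was among the named, and none of these 0% values passed or, in plumule in the dark, had a flag.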

How the data were processed

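Reads were mapped by the authors to rice IRGSP-1.0, the build that the submitters' processing notes also name. For each tissue they pooled gapped and ungapped reads of all replicates and calibrated the resulting gap ratio. The deposited site table holds this as a Ψ fraction for 12 tissues, and says for 11 of them whether a site passed. In the names of 4 of these columns digits had been replaced by words, and they were read by the tissue they name. The authors deposited gene expression as TPM, 2 libraries per tissue. How this table was mapped and counted is not given in the sources used here, so near-identical genes are uncertain.

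Sites were assigned to genes by chromosome, strand and span. The members, lists and tests were chosen with earlier results of these data known. Expression was tested with limma 3.58.1 (R 4.3.3, variance trend) on log2(TPM + 1), which understates changes of weakly expressed genes, with all 12 groups in the fit, genes at 1 TPM or more in 2 libraries, and Benjamini-Hochberg adjustment over all genes at 0.05. Sign-flip tests enumerated all sign patterns (Python 3.11.15, NumPy 2.4.6, SciPy 1.17.1). These were 4096 for 12 tissues, and fewer for the share passed, which used the 11 tissues with a flag. On simulated data for the seedling pair, with 200 changed genes among 30137, limma found 100% of the 4-fold and 81.7% of the 2-fold changes at a dispersion of 0.001, and 96.9% and 67.3% at 0.01 among 30124 genes, but unchanged genes made up 23.0% and 20.5% of the calls, more than the 5% aimed at. Depth was estimated from steps in TPM times gene length, by which 49.1% to 70.0% of values were whole reads within 0.01.

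Named sites were the 10 with the highest mean fraction among members passed in 5 or more tissues with a value in all 12, the 12 highest T-loop members passed in 5 or more tissues, for each pair the 2 largest differences in each direction among members passed in the pair whose gene had 10 TPM or more in all 4 libraries, and members of the 5 genes with most of them. Alternatives were another pseudocount, other filters, quantile normalization, fits of 2 groups, a replicate block, leaving out libraries, counting near-identical libraries as 1 sample, and other sets of sites. Exons, introns and gene names were not analysed here.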

Additional observations from a re-analysis of the deposited data

Results flagged for a closer look

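In 3 of the 8 genes named for the light pairs, plumule and radicle had light effects of different size, by a limma test of the difference over all genes. The share of all genes that passed this test is not given here, so the 3 cannot be set against it. The single light pairs called 27.4% of all genes in plumule and 25.2% in radicle. For Os05g0437900, whose gene level had a log2 change of 0.29 in plumule and -0.35 in radicle, the difference was 0.65 ± 0.14 (SE, limma adjusted p = 0.00482). For Os01g0798100, with 0.70 in plumule and 0.26 in radicle, it was 0.44 ± 0.12 (limma adjusted p = 0.0212). For Os01g0851700, with 0.32 in plumule and 0.69 in radicle, it was -0.37 ± 0.11 (limma adjusted p = 0.0308). Without replicate 1 of radicle in the light these differences were 0.55, 0.41 and -0.36, with limma adjusted p of 0.00887, 0.0267 and 0.0281. The other 5 genes named for the light pairs had adjusted p from 0.0589 to 0.92. With each plumule group counted as 1 sample, chosen after seeing the data, Os05g0437900 alone passed (limma adjusted p = 0.0444), while Os01g0798100 and Os01g0851700 did not (limma adjusted p = 0.142 and 0.176).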

How the results depend on the processing

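The fraction differences of members and of T-loop members kept their direction and their side of the threshold in every alternative run, with values of 9.12 to 14.8 points and of 4.72 to 13.5 points. The share passed stayed above 0.05, with exact p from 0.0527 to 0.124. The higher level of genes with members reversed in 2 alternatives chosen after seeing the data, at -0.19 among genes with 1 site in all and -0.20 with every site weighted by its gene, both as differences of log2(TPM + 1). Counts of members that differ in fraction depended on the rule. At 30 points the counts were 60 in plumule, 67 in radicle, 48 in seedlings, 47 in flag leaf and 85 in embryo and endosperm. With genes at 10 TPM or more in all 4 libraries they were 34, 55, 48, 31 and 47 in the same order, and for sites passed in the pair 9, 32, 20, 16 and 40. The last 2 of these rules let fewer sites in. With each plumule group as 1 sample 125 genes were called in plumule, and with endosperm as 1 sample 445 in embryo and endosperm. With only the 2 groups in the fit, limma called 447 genes with members in plumule and 0 in radicle, where 88 had an unadjusted p under 0.05, and the cause was not tested. Leaving out 1 library gave 189 to 399 genes in plumule, 156 to 414 in radicle, 418 to 535 in seedlings, 239 to 400 in flag leaf and 444 to 554 in embryo and endosperm, the highest value in each pair but radicle being that without replicate 1 of radicle in the light. A replicate block gave 270, 250, 471, 305 and 487 genes in the order of the pairs. The deviations of equally numbered replicates correlated at -0.05 to -0.01. Most libraries of a group differed by little more than sampling noise, so this correlation cannot tell whether equal numbers pair the libraries. The block moved no count by over 1.5 times. The read depth of the fractions is unknown, and its part in them was not tested.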
